A study of Mus musculus with 10 samples.

Results

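Tumor T cells of mice that received a CSF1R inhibitor together with an agonistic CD40 antibody were compared with tumor T cells of control mice, in 5 of the 10 bulk RNA-seq libraries of the series. All mice were of 1 melanoma model, in which the tyrosinase promoter drives an inducible Cre recombinase (Tyr::CreER) in melanocytes, which activates an oncogenic Braf allele (BrafCA), so the controls carry the same tumor alleles. Their genotype field reads wild type, and their age is not given beyond being matched. Control mice (3 libraries, numbered 1, 2 and 3) ate normal chow and received vehicle. Mice of the combination group, labelled CSF1Ri+CD40 (2 libraries, numbered 1 and 3), ate chow with 600 mg/kg of the inhibitor PLX6134 and were injected intraperitoneally with 10 mg/kg of the antibody FGK4.5 every 3 days, for up to 10 doses. Treatment started 30 days after tumor induction, at a tumor volume under 100 mm3, and lasted up to 30 days or until tumors reached 2 cm3. Tumors were pooled, at least 3 to a library, so the p-values measure the spread between pools. The 2 libraries of mice on the inhibitor alone (CSF1Ri) and the 3 of mice on the antibody alone (CD40) are given beside some results and share in the estimate of the spread.

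CSF1R is the receptor for colony-stimulating factor 1, on which macrophages depend for survival. CD40 is a receptor on dendritic cells, macrophages and B cells, and its engagement, normally by CD40 ligand of helper T cells, makes these cells present antigen and secrete cytokines such as interleukin 12. Neither agent is aimed at T cells, so the comparison asks how the transcripts of T cells in the tumor differed when both myeloid pathways were acted on together. In a tumor, CD8 T cells kill through perforin, granzymes and Fas ligand and secrete interferon gamma. T cells exposed to antigen for long carry inhibitory receptors such as PD-1, and gamma delta T cells of the skin are a main source of interleukin 17.

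In the control libraries 1, 2 and 3, Gzmk, which encodes a granzyme, stood at 55, 338 and 161 normalized counts, and in the combination libraries 1 and 3 at 2491 and 2651. Both combination values lay above all 3 control values, at a log2 fold change of 4.14 ± 0.69 (SE; adjusted p = 0.193, limma with Benjamini-Hochberg adjustment over 14213 genes, as for every adjusted p below). Each SE draws on the spread of all 10 libraries. It can be wider or narrower than the spread of the control and combination values printed beside it. The perforin gene, the ectonucleotidase gene Entpd1, and most inhibitory receptor and chemokine genes were higher with the combination as well. Il17a, gamma delta T cell receptor and hemoglobin genes were lower. No gene passed the threshold of an adjusted p under 0.05, or 0% of the genes tested, so these differences are given as values of 2 against 3 pools and not as changes. Fold changes are differences of mean log2(normalized count + 1). Adding 1 shrinks the difference of genes with low counts, while a single library at or near 0 can make the fold change larger than the ratio of the group means.

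Normalized counts summed to 11941067 to 12689076 in the control libraries and to 12693982 and 12750973 in the combination libraries, and 15736 to 17178 genes were above 0. These sums are scaled and are not depths. From the spacing of the values, reads in genes came to about 13.6 M in control 3 and 10.3 M in combination 3 (M, mega), and could not be estimated for the other 3 libraries. Over 8835 genes with a mean of at least 100, ranks correlated across genes at rho 0.873 to 0.902 in the 4 pairs within a group and at 0.860 to 0.896 in the 6 pairs between groups. Transcripts of the Y chromosome summed to 2438 in control 1 and to 0 or 1 in the other 4 libraries, so among the compared libraries control 1 alone held RNA of male mice. Malat1, a nuclear noncoding RNA, was at 45775, 14056 and 59286 in the control libraries and at 20146 and 48947 in the combination libraries, in overlapping ranges.

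By title these are T cells, but the tissue field says tumor macrophages, and no step that selects T cells is described. T cell receptor genes were abundant: Cd3e, a CD3 chain, was at 13804, 10586 and 22822 in the control libraries and at 23096 and 22407 in the combination libraries. Csf1r, the receptor that marks macrophages, was at 110, 120 and 106 against 30 and 41, and Cd40 at 366, 97 and 90 against 156 and 85. Transcripts of T cells, as in the titles, were thus abundant and the macrophage receptor was low.

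Of the 48825 genes of the table, 14213 reached 10 normalized counts in at least 2 of the 5 libraries and were tested. Of these, 7181 were higher and 7032 lower with the combination, at a median log2 fold change of 0.01. At an unadjusted p under 0.05 there were 815 genes, or 5.73% of those tested, where 711 would be reached by a uniform distribution of p. The smallest adjusted p was 0.0867, for the hemoglobin gene Hbb-bt, and 10 genes were under 0.2. With 1 combination library left out, 15 genes passed on the lower side without combination 1 and 4 without combination 3, 3 of these hemoglobin genes. Both combination libraries lay above all control libraries in 1598 genes (11.2% of those tested) and below all of them in 1455 (10.2%). With 2 against 3 libraries, a random order of the libraries gives shares close to these. With a fold change of at least 2 added, 639 genes were higher (4.5%) and 698 lower (4.91%). Below, "apart" means that both combination libraries lay on one side of all 3 control libraries, and counts in gene lists are to be read against these shares. The lists were chosen with earlier results of these data known, so an excess over these shares is no test.

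The 15 genes with the smallest p in each direction, among those apart by at least 2-fold and with a mean of at least 100 in the higher group, give the leading pattern. Entpd1, which encodes CD39, the enzyme that degrades extracellular ATP, was at 355, 333 and 244 in the control libraries and at 1106 and 1682 in the combination libraries (log2 fold change 2.15 ± 0.32, adjusted p = 0.193). Lilrb4a, an inhibitory immunoglobulin-like receptor, was at 284, 232 and 216 against 940 and 968 (1.97 ± 0.31, adjusted p = 0.193). Cd38, a surface enzyme that consumes NAD, was at 157, 251 and 165 against 635 and 1398 (2.33 ± 0.41, adjusted p = 0.193). In these 3 genes the lowest combination value was above the highest control value by a wide margin, and the combination libraries differed from each other most in Cd38. Gimap7, a GTPase of lymphocytes, was at 1381, 2031 and 1296 against 3302 and 3449 (1.13 ± 0.24, adjusted p = 0.441). Ifitm1, an interferon-induced membrane protein, was at 102, 217 and 114 against 844 and 467 (2.20 ± 0.48, adjusted p = 0.481).

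**Figure D1:**
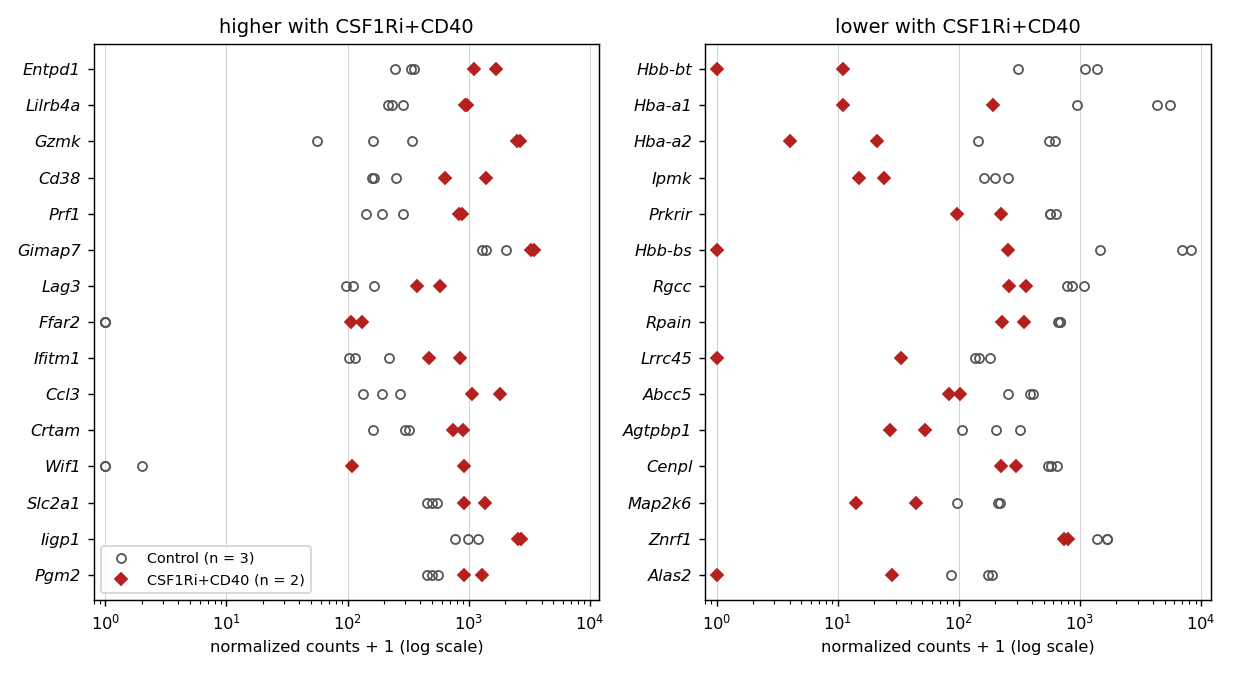
Normalized counts plus 1 (log axis) of the 15 leading genes in each direction, with open circles for the 3 control libraries and diamonds for the 2 CSF1Ri+CD40 libraries. In each row the diamonds lie on one side of all circles, which is a condition for being drawn, and the widest gaps on the log axis are those of Ffar2, Wif1 and Hbb-bt.

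A pair of leading genes was close to absent from the control libraries. Ffar2, a receptor for short-chain fatty acids, was at 0 in all 3 control libraries and at 106 and 130 in the combination libraries, at least 39.3-fold higher against a floor of 3 normalized counts per library. Wif1, a secreted inhibitor of Wnt ligands, was at 0, 1 and 0 against 108 and 911, so its level came mostly from combination 3. The glucose transporter gene Slc2a1 was at 456, 497 and 551 against 1358 and 917. Pgm2, a phosphoglucomutase, was at 562, 452 and 501 against 1280 and 922. The other leading genes on the higher side, Prf1, Lag3, Ccl3, Crtam and Iigp1, are given with their groups below.

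Among the leading genes on the lower side, 5 were erythroid genes, given with the markers of other cells below. Ipmk, an inositol phosphate kinase, was at 253, 160 and 197 in the control libraries and at 14 and 23 in the combination libraries (log2 fold change -3.40 ± 0.60, adjusted p = 0.193). Ipmk was also low in the CD40 libraries, at 54, 35 and 41, and was at 135 and 143 in the CSF1Ri libraries. Rgcc, a regulator of the cell cycle, was at 864, 1075 and 775 against 356 and 256 (-1.57 ± 0.33, adjusted p = 0.441). Prkrir, a zinc finger protein, was at 564, 564 and 635 against 223 and 96. Rpain, which binds replication protein A, was at 686, 683 and 662 against 346 and 225. Of these, Rpain and Prkrir varied least among the control libraries. The remaining leading genes on this side were Lrrc45, Abcc5, Agtpbp1, Cenpl, Map2k6 and Znrf1, with log2 fold changes from -2.73 for Map2k6 to -1.03 for Znrf1 besides Lrrc45. Lrrc45, a protein of the centrosome, was at 145, 178 and 135 against 32 and 0, and its log2 fold change of -4.73 was -7.25 without combination 1 and -2.21 without combination 3.

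Genes of target cell killing were higher with the combination. Of 20 cytotoxic effector genes tested, 18 were higher, and 13 of them were apart; 2 were lower, of which Lamp1 was apart. The median log2 fold change of the list was 0.69, against 0.01 over all genes, and 1.18 without control 2. None of its genes passed the test. Prf1, which encodes the pore-forming protein perforin, was at 142, 287 and 190 in the control libraries and at 839 and 874 in the combination libraries (2.11 ± 0.42, adjusted p = 0.441). Gzmb was at 1820, 3342 and 2513 against 6901 and 4972 (1.24 ± 0.41, adjusted p = 0.784). The combination libraries were thus close to each other for Gzmk and Prf1, while the control libraries ranged more than 2-fold. Fasl, the ligand of the death receptor Fas, was at 307, 497 and 489 against 1475 and 1558 (1.85 ± 0.74, adjusted p = 0.863). Crtam, an adhesion receptor of activated killer cells, was at 161, 298 and 321 against 890 and 738, and Serpinb9, an inhibitor of granzyme B, at 252, 352 and 386 against 763 and 841. Nkg7, a granule membrane protein, was at 9665, 14150 and 7193 against 22533 and 26844. The granzymes were not alike. Gzma was at 2015, 2538 and 1102 against 2838 and 2642, apart by a narrow margin (log2 fold change 0.62). Gzmc was at 156, 246 and 654 against 163 and 204, inside the control range. Gzmk had the largest log2 fold change of the 20 genes.

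Natural killer cells use the same effector genes. Klrb1c, a receptor of natural killer cells, was at 340, 501 and 255 in the control libraries and at 281 and 177 in the combination libraries. Eomes, also on the natural killer list, went the other way and was apart, at a log2 fold change of 2.4. Its values are given with the type 1 helper genes below. Of the 13 genes tested in the natural killer and innate lymphoid list, 7 were higher and 6 lower, with 2 apart on each side. Their median log2 fold change was 0.01, and with 1 library left out it ran from -0.29 without control 3 to 0.09 without control 2. The list's sum, most of it Id2, was 20079 to 31985 in the control libraries and 41335 and 36121 in the combination libraries. Id2, a transcriptional regulator that T cells also express, made up 35911 and 31727 of it. Of 18 killer cell receptor genes, 12 were higher, 3 of them apart, and 6 were lower, 1 of them apart. The part of natural killer cells in the killing genes was not tested.

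Genes of inhibitory receptors and of T cell exhaustion showed a like pattern. Of the 20 tested, 18 were higher and 11 of these were apart; 2 were lower and neither was apart, at a median log2 fold change of 0.72. Lag3, a receptor for MHC class II, was at 109, 166 and 96 in the control libraries and at 575 and 375 in the combination libraries (1.94 ± 0.41, adjusted p = 0.441). Pdcd1, which encodes PD-1, was at 1622, 2057 and 2188 against 5676 and 3324 (1.16 ± 0.39, adjusted p = 0.795). Tigit was at 2770, 1758 and 3996 against 5479 and 5657 (1.05 ± 0.31, adjusted p = 0.715). Havcr2, which encodes TIM-3, was at 208, 490 and 533 against 852 and 680 (1.00 ± 0.46, adjusted p = 0.863). Ctla4 did not follow, at 8121, 8928 and 7599 against 7945 and 7676. Tox, a transcription factor of exhausted cells, overlapped between the groups, at 1158, 676 and 1515 against 1877 and 1425.

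Entpd1 and Cd38 belong to this list and to that of the genes around extracellular ATP and adenosine. In that second list 8 of 10 tested genes were higher, 3 of them apart. CD39 makes AMP from ATP, and CD73, encoded by Nt5e, makes adenosine from AMP. Nt5e was at 626, 771 and 674 in the control libraries and at 666 and 593 in the combination libraries, so the second enzyme overlapped between the groups where the first did not. Adora2a, the adenosine receptor of T cells, was at 107, 49 and 118 against 241 and 114.

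Chemokine genes were higher as well. Of 12 chemokine and growth factor genes tested, 11 were higher, 5 of them apart, at a median log2 fold change of 0.97, and of 1.61 without combination 1. Ccl3, Ccl4 and Ccl5 encode chemokines made by activated T cells that attract further T cells and myeloid cells. Ccl3 was at 190, 272 and 133 in the control libraries and at 1074 and 1830 in the combination libraries (2.88 ± 0.65, adjusted p = 0.528). Ccl4 was at 1200, 1869 and 1103 against 6380 and 8292 (2.43 ± 0.99, adjusted p = 0.863). Ccl5 was at 22435, 27011 and 13764 against 42854 and 67337 (1.41 ± 0.59, adjusted p = 0.863). Combination 3 held the higher value of all 3 genes. Csf1, the ligand of the receptor that the inhibitor blocks, was at 160, 10 and 37 against 249 and 252 (2.63, adjusted p = 0.841). Csf1 was thus apart, with control libraries that ranged widely.

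Of the 16 genes of the type 1 helper list, which also holds Ccl3, Ccl4 and Ccl5, 13 were higher and 7 of these were apart, at a median of 0.80. Ifng, which encodes interferon gamma, was at 876, 1063 and 563 against 2145 and 2267 (1.45 ± 0.83, adjusted p = 0.883). Cxcr3, a chemokine receptor of type 1 cells, was at 1142, 2105 and 1385 against 4032 and 3289 (1.29 ± 0.41, adjusted p = 0.752). Eomes, a transcription factor of memory and killer T cells that is also on the natural killer list, was low throughout, at 86, 26 and 76 against 208 and 425. Tbx21, which encodes the type 1 factor T-bet, overlapped, at 211, 5 and 159 against 164 and 79. Tnf and Il2, a pair of further cytokine genes, did not share the direction of Ifng. Tnf was at 353, 317 and 460 against 345 and 165, and Il2 at 217, 396 and 185 against 171 and 209.

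**Figure D2:**
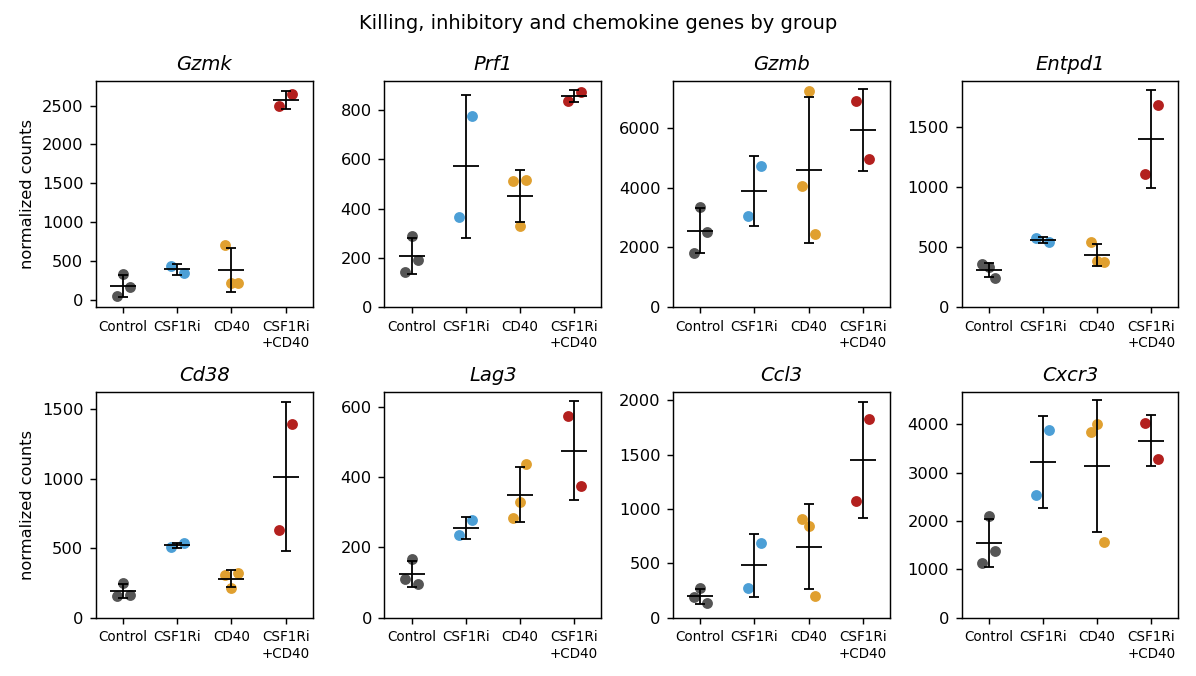
Normalized counts of 8 killing, inhibitory and chemokine genes in all 10 libraries by group, 1 point per library, with the mean as a bar and the SD as whiskers. For Gzmk the CSF1Ri+CD40 points at 2491 and 2651 lie above those of every other group, the highest of which is 710, while for Gzmb and Cxcr3 single CSF1Ri or CD40 libraries reach the same range.

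Genes that interferon gamma induces were nearly all on the higher side, by small amounts. Of 29 tested, 27 were higher and 11 of these apart, and 2 were lower with neither apart, at a median log2 fold change of 0.41. Iigp1, an immunity-related GTPase, was at 774, 1183 and 985 in the control libraries and at 2700 and 2562 in the combination libraries (1.44 ± 0.35, adjusted p = 0.588). Irf1, the transcription factor that carries much of the response, was at 2207, 2476 and 1934 against 3187 and 4252 (0.75 ± 0.21, adjusted p = 0.715). Igtp was at 2851, 3893 and 3004 against 5483 and 5023, and Irgm1 at 918, 1814 and 1523 against 2212 and 2785, both of them GTPases of the same family, whose closely related members can share reads. Gbp8, a guanylate-binding protein, was at 20, 153 and 188 against 433 and 398. Of 25 genes of the type I interferon response, 15 were higher, 4 of them apart, and 10 lower with none apart, at a median of 0.10, which was -0.017 without control 3, 0.17 without control 2 and 0.34 without combination 1.

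The promoters of many genes of the interferon gamma list carry letters through which interferon gamma is known to act. These are the palindrome TTCNNNGAA (a GAS element) and GAAANNGAA or, on the other strand, TTCNNTTTC, which IRF factors bind. Both strands of the 250 bases upstream of each RefSeq start (GRCm38.p6) were searched. Of the 29 genes tested, 19 had a promoter in the table, with 22 promoters. Among these, 40.9% held a GAS match, 54.5% an IRF match and 68.2% either, against 7.02%, 7.13% and 13.4% of all 32851 promoters. This list was chosen as targets of the pathway, so the shares describe the list and are no finding of these libraries. The stretches of 100 bases below, in the direction of transcription with the matches in capitals, show how the letters lie in 3 of the genes named above.
Irf1, chr11:53769904-53770003, plus strand: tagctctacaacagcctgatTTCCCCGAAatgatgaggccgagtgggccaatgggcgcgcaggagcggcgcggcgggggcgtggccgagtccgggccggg
Igtp, chr11:58199456-58199555, plus strand: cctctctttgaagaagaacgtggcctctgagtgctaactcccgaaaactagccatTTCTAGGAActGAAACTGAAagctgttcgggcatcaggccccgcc
Irgm1, chr11:48871421-48871520, minus strand: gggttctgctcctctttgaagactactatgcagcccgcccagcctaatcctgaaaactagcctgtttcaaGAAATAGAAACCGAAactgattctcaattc
Irf1 carries 1 GAS match, Igtp a GAS and an IRF match separated by a few bases, and Irgm1 an overlapping pair of IRF matches. A match is a run of letters and does not show that a factor was bound there in these cells.

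MHC class I genes, which interferon gamma also induces, were higher in 21 of 22 tested, 7 of them apart, at a median log2 fold change of 0.33. H2-Q6 was at 2299, 2497 and 2274 in the control libraries and at 3223 and 3604 in the combination libraries (0.53, adjusted p = 0.795), and H2-T23 at 4664, 7552 and 6959 against 10565 and 10026 (0.72, adjusted p = 0.841). These differences were under 2-fold. Of 14 MHC class II genes, which T cells of mice hardly make, 9 were higher, 2 of them apart.

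Among the lineage genes of T cells, those of CD8 cells differed more than that of CD4 cells. Cd8a was at 1911, 1691 and 1475 in the control libraries and at 3785 and 4947 in the combination libraries (1.36 ± 0.43, adjusted p = 0.757), and Cd8b1 at 2780, 2754 and 2613 against 5296 and 6766 (1.14 ± 0.40, adjusted p = 0.797). Cd4 was at 2146, 2226 and 2364 against 4203 and 2403 (0.50 ± 0.26, adjusted p = 0.877), so that combination 3 was only just above the control range. In the T cell identity list 18 of 22 genes were higher, 6 of them apart, and the list summed to 141266 to 167982 in the control libraries and to 195185 and 184122 in the combination libraries. In bulk RNA, more cells of a type and more RNA per cell cannot be told apart, which holds for every gene of a cell type here. The killing and interferon genes above therefore stood beside higher levels of Cd8a, and the part of cell numbers in them was not tested.

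**Figure D3:**
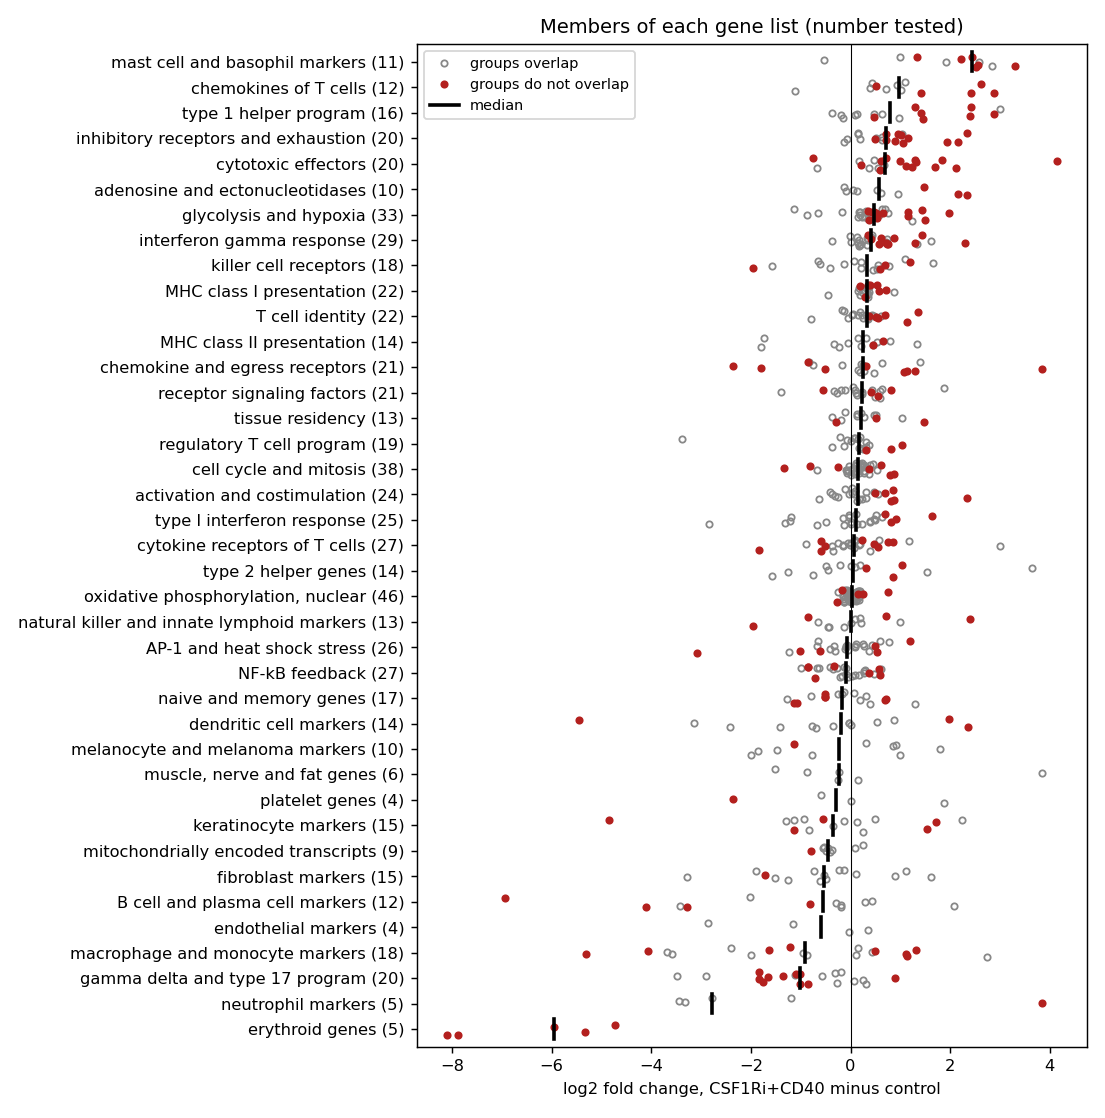
Log2 fold change of the combination over control for each tested member of 39 gene lists (points; filled where the groups were apart) with the median of each list as a black bar, sorted by median. The chemokine, type 1, inhibitory receptor and cytotoxic lists lie to the right of 0, with medians of 0.69 to 0.97, and the gamma delta and type 17 list lies to the left at -1.02. Lists of other cells lie further out, with mast cell genes at 2.45, neutrophil genes at -2.79 and erythroid genes at -5.95.

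Genes of gamma delta T cells and of interleukin 17 production were lower with the combination. Of the 20 tested, 16 were lower and 9 of these apart, and 4 were higher with 1 apart, at a median log2 fold change of -1.02. The list summed to 32190 to 46293 in the control libraries and to 24330 and 23450 in the combination libraries. Il17a was at 3182, 3672 and 4222 in the control libraries and at 1215 and 978 in the combination libraries (-1.75 ± 0.46, adjusted p = 0.651). Trdc, the constant segment of the delta chain that marks gamma delta cells, was at 6354, 5633 and 7929 against 3061 and 3123 (-1.09 ± 0.36, adjusted p = 0.784). Tcrg-C1, a constant segment of the gamma chain, was at 2470, 2078 and 3209 against 1157 and 1354. The receptor genes and Il17a were thus lower together. Il1r1, the interleukin 1 receptor that drives interleukin 17 production, was at 1160, 630 and 1209 against 205 and 346 (-1.85 ± 0.63, adjusted p = 0.795). Blk, a kinase of these cells, was at 2712, 1450 and 2809 against 847 and 903, and Cd163l1, a scavenger receptor, at 1115, 692 and 731 against 329 and 161.

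The cytokine genes of this program differed in direction. Il17f lies next to Il17a on chromosome 1 of GRCm38 (Il17a at chr1:20730905-20734496 on the plus strand and Il17f at chr1:20777146-20790617 on the minus strand, GENCODE vM21). Il17f was at 3196, 7086 and 6212 in the control libraries and at 3997 and 4370 in the combination libraries (-0.32 ± 0.98, adjusted p = 0.999), inside the control range. Il22, which encodes a cytokine that acts on keratinocytes, was at 191, 294 and 231 against 455 and 419 (0.89 ± 1.13, adjusted p = 0.978), and was the gene of the list that was apart on the higher side. The SEs of Il17f and Il22 take in the single treatments, and both genes ranged widely among the CD40 libraries, as given below. Il23r, the receptor for the cytokine that maintains these cells, was at 131, 95 and 146 against 130 and 127. Ccr6, their homing receptor, was at 1052, 940 and 2191 against 2244 and 1053. Il17a was thus lower while Il17f, Il23r and Ccr6 overlapped and Il22 was higher.

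Set beside the single treatments, the combination held more of these cytokine transcripts than the antibody alone. In the CD40 libraries, Il17a was at 485, 155 and 128, Il17f at 2058, 188 and 86, and Il22 at 12, 2 and 67, so every combination value lay above every CD40 value. The log2 difference of the combination from CD40 was 2.35 ± 0.46 for Il17a (adjusted p = 0.552), 3.69 ± 0.98 for Il17f (adjusted p = 0.741) and 4.98 ± 1.13 for Il22 (adjusted p = 0.646). In the CSF1Ri libraries, Il17a was at 1070 and 1138, Il17f at 2044 and 3067, and Il22 at 11 and 58. Trdc did not follow this order, at 3527, 2450 and 5940 in the CD40 libraries and 3686 and 7133 in the CSF1Ri libraries.

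**Figure D4:**
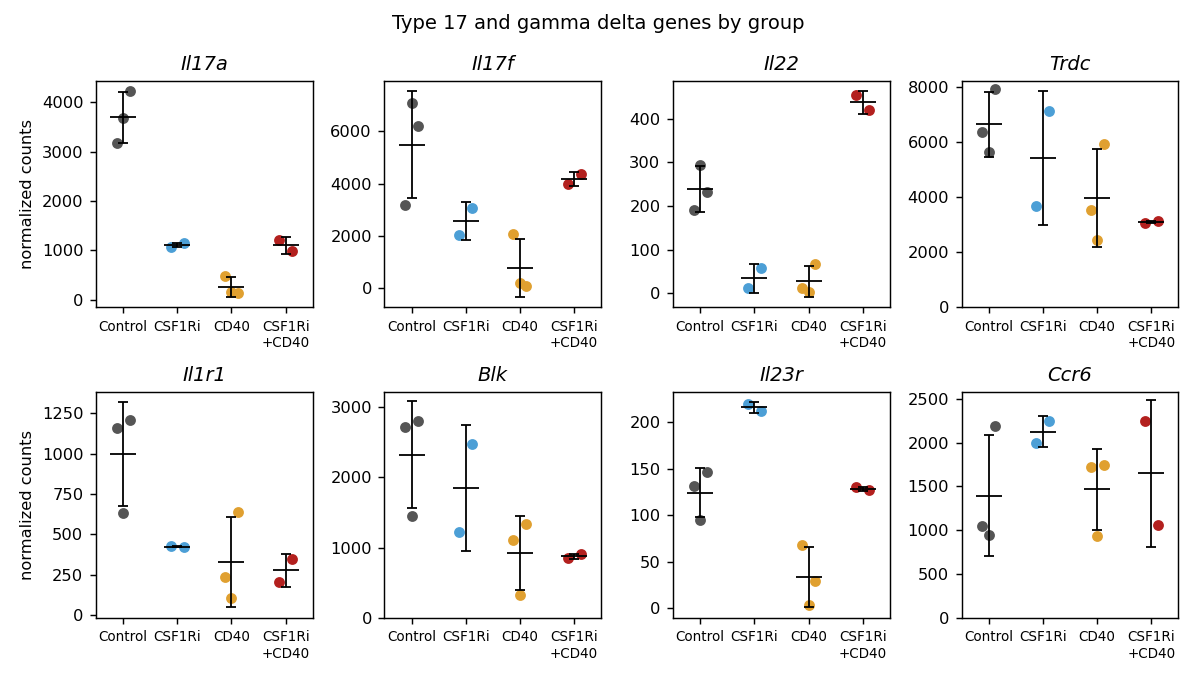
Normalized counts of 8 type 17 and gamma delta genes in all 10 libraries by group, 1 point per library, with the mean as a bar and the SD as whiskers. Il17a, Trdc, Il1r1 and Blk were lower in both CSF1Ri+CD40 libraries than in every control library, Il22 was higher at 455 and 419, and Il17f, Il23r and Ccr6 overlapped with control.

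Gzmk, Entpd1 and Lilrb4a were also higher with the combination than in each library of the single treatments. Gzmk was at 442 and 345 in the CSF1Ri libraries and at 710, 217 and 219 in the CD40 libraries, and the log2 difference of the combination was 2.72 ± 0.76 from CSF1Ri and 2.99 ± 0.69 from CD40. Entpd1 was at 572 and 541 with CSF1Ri and at 541, 383 and 373 with CD40, and Lilrb4a at 382 and 322 and at 387, 385 and 283. Pdcd1 differed from these, at 5196 and 5187 with CSF1Ri and at 5537, 2833 and 1868 with CD40, so that the single treatments reached the level of the combination. No gene passed an adjusted p under 0.05 for the combination over CSF1Ri (0%; smallest adjusted p 0.431) or over CD40 (0%; smallest 0.552). At an unadjusted p under 0.05 there were 487 genes (3.43%) and 736 genes (5.18%). These contrasts share the combination libraries with the comparison against control, and they and their genes were chosen after values had been seen.

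Naive and memory genes were split in direction. Of 17 tested, 10 were lower, 5 of them apart, and 7 were higher, 2 of them apart, at a median log2 fold change of -0.17. The median was -0.53 without control 2, with 13 of 17 lower, and nearer to 0 without the other libraries taken 1 at a time except combination 3 (-0.28): -0.014 without control 1, -0.044 without control 3 and -0.10 without combination 1. Klf2, a transcription factor that keeps cells in circulation, was at 1278, 822 and 675 in the control libraries and at 438 and 378 in the combination libraries (-1.13 ± 0.42, adjusted p = 0.830). Dapl1, a gene of memory-like cells, was at 805, 696 and 500 against 288 and 333. Tcf7, which encodes the factor TCF-1 of stem-like T cells, was at 5153, 2088 and 3847 against 2390 and 1674, and overlapped through control 2. Cd27, a costimulatory receptor, went the other way, at 1916, 1814 and 1573 against 2732 and 2981 (0.70 ± 0.20, adjusted p = 0.715). Among 21 receptors of homing and egress, 14 were higher, 5 of them apart, and 7 lower, 4 of them apart. Besides Cxcr3, Cxcr4, the receptor for CXCL12, was at 1949, 2022 and 1560 against 951 and 1072 (-0.86 ± 0.24, adjusted p = 0.715).

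Few of the regulatory T cell genes were apart, and the defining one overlapped between the groups. Foxp3, their defining transcription factor, was at 2639, 1620 and 2543 in the control libraries and at 2673 and 2231 in the combination libraries (0.14, adjusted p = 0.996). Of 19 genes of the program, 14 were higher, 3 of them apart, and 5 lower with none apart, at a median of 0.17. Over all genes tested, 11.2% were apart on the higher side and 10.2% on the lower. The median was 0.022 without control 2, 0.010 without combination 1 and 0.30 without combination 3. The 3 apart were Tnfrsf9, Il10 and Ccr8. Tnfrsf9, the costimulatory receptor 4-1BB, was at 3320, 4440 and 5062 against 9202 and 5962, and Il10, which encodes an inhibitory cytokine, at 198, 357 and 217 against 456 and 563. Activated T cells of other kinds also express Tnfrsf9 and Il10.

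Of 33 genes of glycolysis and of the response to low oxygen, 29 were higher, 14 of them apart, and 4 were lower with none apart, at a median log2 fold change of 0.48, and of 0.29 without combination 1. Besides Slc2a1, the transporter gene Slc2a3 was at 526, 637 and 659 in the control libraries and at 900 and 849 in the combination libraries. Gpi1, a glycolytic isomerase, was at 3986, 4129 and 4215 against 6874 and 5202, and Ankrd37, a gene induced at low oxygen, at 109, 128 and 226 against 382 and 421. In Gpi1 and Slc2a1, combination 1 held the higher level. Of 46 nuclear genes of oxidative phosphorylation 26 were higher and 20 lower, at a median of 0.02, and 5 were apart. This split rested on single libraries: 40 were higher without control 2, and 30 were lower without control 3. The median was 0.15 and -0.064 there, -0.014 without control 1 or combination 1, and 0.063 without combination 3.

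Proliferation differed little. Of 38 cell cycle genes 29 were higher, 4 of them apart, and 9 lower, 3 of them apart, at a median of 0.16, and of 0.27 without control 3. Mki67, a marker of cycling cells, was at 2094, 1262 and 2145 in the control libraries and at 2151 and 2084 in the combination libraries. Cd40lg, the ligand of the receptor that the antibody engages, was at 582, 730 and 1012 against 648 and 531, and Klrg1, a marker of terminal effector cells, at 2499, 3558 and 3130 against 3009 and 3350, both in overlapping ranges.

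The other T cell lists are given by their counts. In activation and costimulation 17 of 24 genes were higher, 6 of them apart, and 7 lower with none apart. In tissue residency 9 of 13 were higher, 2 of them apart, and 4 lower, 1 of them apart. In the cytokine receptors 15 of 27 were higher, 5 of them apart, and 12 lower, 4 of them apart. In type 2 helper genes 8 of 14 were higher, 3 of them apart, and 6 lower with none apart. In receptor signaling factors 15 of 21 were higher, 3 of them apart, and 6 lower, 1 of them apart. In NF-kB feedback 11 of 27 were higher, 3 of them apart, and 16 lower, 4 of them apart. In AP-1 and heat shock genes 12 of 26 were higher and 14 lower, with 3 apart on each side. Of 9 mitochondrially encoded transcripts 7 were lower, 1 of them apart, and 2 higher with none apart. Of 85 ribosomal protein genes 69 were higher, 20 of them apart, and 16 lower, 2 of them apart.

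Hemoglobin and other erythroid genes had the lowest median of the lists. All 5 tested were lower and apart, at a median log2 fold change of -5.95. Hbb-bs was at 6912, 8176 and 1460 in the control libraries and at 0 and 253 in the combination libraries, Hbb-bt at 1095, 1378 and 309 against 0 and 10, and Hba-a1 at 4342, 5548 and 943 against 10 and 191. Reads shared by the near-identical globin genes can be split between them, so their sum is the safer quantity. It was 12899, 15721 and 2855 in the control libraries and 13 and 474 in the combination libraries. The libraries of the single treatments lay between, at 1288 and 2695 with CSF1Ri and at 811, 1171 and 838 with CD40. Alas2, the heme synthesis enzyme of red cell precursors, was at 172, 185 and 85 against 0 and 27. Red cells were lysed during preparation, and the part of that step in these values was not tested.

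Macrophage genes gave values in both directions. Of 18 tested, 10 were lower and 8 higher, with 4 apart on each side, at a median log2 fold change of -0.92. C1qc, a complement gene of macrophages, was at 47, 36 and 34 in the control libraries and at 0 in both combination libraries, at least 13-fold lower against the floor of 3. Adgre1, which encodes F4/80, was at 78, 21 and 0 against 0 and 0. Control 3 was also at 0 for Adgre1, so its groups were not apart. Arg1 and C1qb, like Csf1r and C1qc, were apart on the lower side. The 4 apart on the higher side were Ly6c2, Cd68, Cx3cr1 and Ctsb. Cd68, a lysosomal protein abundant in macrophages, was at 242, 123 and 79 against 266 and 419. Ly6c2, which monocytes share with activated CD8 T cells, was at 1608, 2018 and 1557 against 3529 and 3902 (1.11, adjusted p = 0.715). The summed list, 13144 to 17814 in the control libraries and 18668 and 20136 in the combination libraries, was carried by Ctsb and Ly6c2, which other cells express too. The median was 0.06 without combination 1, which ends the direction of this list, and 0.29 with a filter at 50 in place of 10.

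Transcripts of other cells were present as well, some in overlapping ranges and some apart between the groups. Of 12 B cell and plasma cell genes 9 were lower, 4 of them apart, and the plasma cell gene Jchain was at 24, 611 and 120 in the control libraries and 0 in both combination libraries. Of 14 dendritic cell genes 9 were lower, 1 of them apart, and 5 higher, 2 of them apart. Siglech of plasmacytoid cells was at 44, 28 and 62 against 0 and 0. Xcr1 of cross-presenting dendritic cells was at 34, 22 and 32 against 152 and 89, and Flt3, a growth factor receptor, at 60, 0 and 72 against 80 and 86. Mast cell genes were higher in 10 of 11, 6 of them apart, at a median of 2.45. Their sum was 979, 1073 and 3120 in the control libraries and 14335 and 2947 in the combination libraries, so it overlapped, and combination 1 held most of it. Cpa3, a mast cell protease, was at 54, 56 and 339 against 2840 and 356. Keratinocyte genes were lower in 9 of 15, fibroblast genes in 11 of 15, melanocyte genes in 5 of 10, neutrophil genes in 4 of 5, endothelial genes in 3 of 4, platelet genes in 2 of 4, and muscle, nerve and fat genes in 4 of 6. Single libraries set the direction of several of these lists. Without combination 1, 3 of 15 keratinocyte, 5 of 15 fibroblast and 2 of 10 melanocyte genes were lower, and without combination 3 it was 13, 13 and 8. Without control 3, 3 of 10 melanocyte genes were lower, and without combination 1, 1 of 4 platelet genes and 3 of 6 muscle, nerve and fat genes. The fibroblast sum was 4829 to 6669 in the control libraries and 3267 and 9890 in the combination libraries. The part of these cells in the T cell results was not tested.

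**Figure D5:**
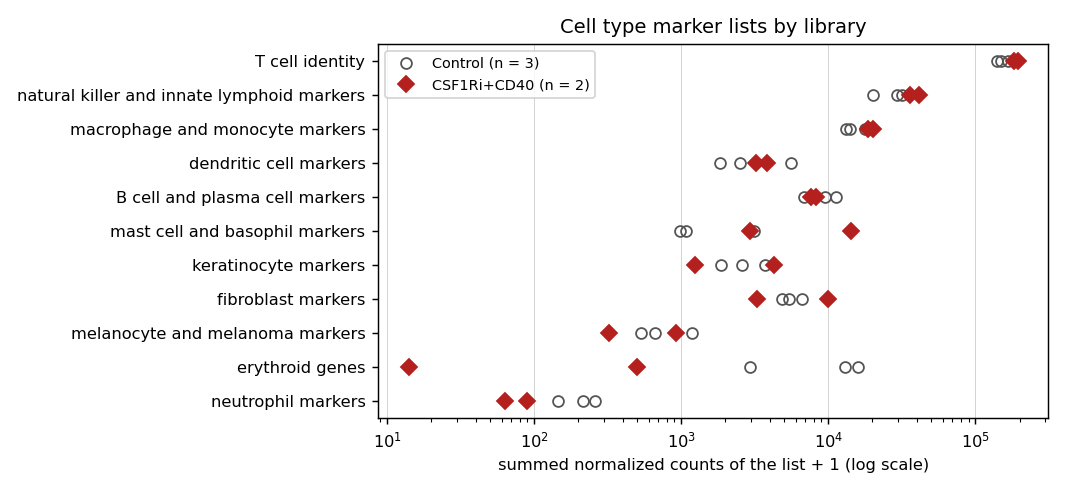
Summed normalized counts plus 1 (log axis) of 11 cell type marker lists, with open circles for the 3 control libraries and diamonds for the 2 CSF1Ri+CD40 libraries. Erythroid genes are the list with the widest gap, from 2940 to 15906 in the control libraries to 13 and 501 in the combination libraries, and mast cell genes are highest in combination 1 at 14335.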

How the data were processed

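Bulk RNA of tumor T cells was measured in 10 libraries, 5 of which are compared here. Per the labels' protocols, libraries were made without strand information from 50 ng of RNA, and STAR (alignment to GRCm38, mm10), HTSeq (counting) and DESeq2 (normalization) were used, per the submitters' processing notes. Versions and the annotation release are not given in the sources used here. Without strand, reads of a gene and an antisense partner cannot be told apart. The deposited values are scores: counts per gene that the authors divided by size factors and rounded, called normalized counts here. All sample columns were used as deposited, and 27 gene names had been turned into numbers.

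Genes with at least 10 in at least 2 of the 5 libraries were kept. Values were taken to log2 after adding 1 and fitted over the 4 groups in limma 3.58.1 (R 4.3.3), with a variance trend, 6 residual and 5.11 prior degrees of freedom, two-sided tests and Benjamini-Hochberg adjustment. The fit was tested on simulated data that gave every gene the same setting of spread. How it performs at the spread of these libraries was not tested. Replicate numbers did not pair libraries in the fit. Of 774 genes on 41 lists, 692 were tested. The members and lists were chosen with earlier results of these data known. Named genes were the 15 leading ones per direction, up to 6 smallest-p members of each list described, and 24 always given. Gzma, Gzmc, Lamp1, Nkg7, Tox, Tbx21, Nt5e, Il23r, Ccr6, Ctsb, C1qb and Cx3cr1 were chosen after their values were seen. Upstream sequences are from RefSeq (GRCm38.p6). Alternatives changed the pseudocount, filter, scaling, variance model, samples fitted and block, and left out each library. Python 3.11.15 with pandas 2.3.3 and matplotlib 3.10.9 served for the rest. Some items are not reported here.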

Additional observations from a re-analysis of the deposited data

How the results depend on the processing

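The 5 libraries are small pools, the depth of most is not known, and whole reads were not recovered, so counting error is not separated from other spread. Of 18 alternatives, 13 left 0 genes past the threshold. Hbb-bt alone passed, on the lower side, with a pseudocount of 5 and with a filter at 50 (1 gene each), and 14 genes passed without the variance trend, 10 of them higher. With 1 library left out the count ran from 0 to 15, and every gene that passed was lower. Genes apart by at least 2-fold ran from 857 to 1678 higher and from 952 to 1609 lower with 1 library left out, where fewer libraries are easier to separate, and numbered 405 and 427 with the filter at 50. Control and combination share only the numbers 1 and 3, which the labels do not tie to a litter or day. Departures of same-numbered libraries from their group means correlated at -0.07 and 0.05. With 2 combination libraries, their departures mirror each other, so these correlations are not separate checks of pairing. With the replicate block, 0 genes passed (smallest adjusted p 0.816). That fit also left out the CSF1Ri libraries and had 3 residual degrees of freedom against 6 in the main fit. Of 105 genes reported, 96 kept their direction in every alternative, as did the medians of the killing, inhibitory receptor, chemokine, interferon gamma and type 17 lists. The 9 that did not had groups that overlap. With the replicate block the log2 fold change was -0.0161 for Ccr6, -0.0406 for Foxp3, 0.0218 for Il2 and -0.60 for Il23r. Without libraries that hold Y-linked transcripts it was 0.30 for Cd40, -0.0719 for Klrg1 and 0.12 for Malat1. With 1 library left out it ran from -0.30 to 0.79 for Ccr6, from -0.79 to 0.30 for Cd40, from -0.0852 to 0.27 for Foxp3, from -0.11 to 0.20 for Il23r, from -0.0719 to 0.18 for Klrg1, from -0.74 to 0.54 for Malat1, from -0.0014 to 0.38 for Mki67 and from -0.68 to 1.89 for Tbx21. The cause was not tested. The medians of the macrophage, keratinocyte, melanocyte, fibroblast, endothelial, platelet, muscle, natural killer, dendritic cell, cytokine receptor, type 2, type I interferon, NF-kB, AP-1 and oxidative phosphorylation lists changed sign in at least 1 alternative. Equal totals in place of the deposited scaling moved the median over all genes from 0.01 to -0.05.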
